A study of Mus musculus with 6 samples.

Results

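The cell cycle genes described here are 35 transcripts of proliferating cells, measured in lymphatic endothelial cells sorted from mouse melanomas. They were listed by symbol, and all 35 were found among the 13454 genes of the expression table. They fall into 14 genes of S phase, 19 genes of mitosis and 2 genes of G1, Ccnd1 and Cdkn1a, which were kept apart from both. The tumours were B16-OVA-VEGFC, a transplanted mouse melanoma line described as lymphangiogenic. The mice that received them were lymphatic-specific knockouts of Ch25h (LEC-Ch25h KO, 3 libraries, here Ch25h KO) or were littermate controls (LEC-CH25h WT, 3 libraries, here WT). Ch25h makes the oxysterol 25-hydroxycholesterol. Both groups carried the same tumour line and went through the same digestion and the same sort for CD45-negative, CD31-positive and GP38-positive cells. Strain, age, time after transplantation, the driver of the deletion and the number of animals behind a library do not stand in the sources used here, so the p-values below speak only of variation among these libraries, and that variation may be technical.

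Cells copy their DNA in S phase and divide in mitosis, and different sets of genes serve the steps. The MCM proteins form the ring-shaped helicase that opens DNA, Pcna clamps the polymerases, and Rrm1, Rrm2 and Tyms supply deoxynucleotides. Cyclin B with the kinase Cdk1 drives entry into mitosis, the Aurora and Polo kinases build the spindle, and Cdc20 with the anaphase-promoting complex ends mitosis by marking cyclin B for destruction. E2F factors are known to turn on the S phase genes from late G1, while the mitotic genes are held back by the DREAM complex and later turned on by B-Myb and FoxM1. Lymphatic endothelium is mostly quiescent in adult tissue and divides when VEGFC stimulates its receptor VEGFR3, as in lymphangiogenic tumours.

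The promoters of both sets are shown first because mitotic and S phase genes, listed by function, differ in their promoter letters. RefSeq promoter windows on GRCm38.p6, the mm10 assembly, run from 250 bases before to 50 bases after a transcript start, and 29 of the 35 members had at least 1. Windows for Mcm4, Ccne2, Ccna2, Aurkb, Tpx2 and Ccnd1 were not used here. Of the 31 member windows 22 held, just after their start, letters found near the start of an annotated transcript. The windows of E2f1, Cdc6 and Mcm7 and the downstream window of Cdkn1a lay wholly inside the annotated gene. They are counted below, although bases before the outermost annotated start were not searched in them. Each window is printed 5′ to 3′ on its gene's strand, and capitals mark matches, on either strand, to the cell cycle homology region or CHR (TTTGAA or TTTAAA), the CCAAT box (CCAAT, or ATTGG on the other strand) and E2F letters (TTTCCCGC, TTTCGCGC, TTTGCCGC or TTTGGCGC). Ccnb1 and Cdk1 are shown as mitotic genes with a CHR, Bub1 as the mitotic gene without one, and Rrm2 and Mcm6 as S phase genes, the one with a CHR and the other with E2F letters.
Ccnb1, chr13:100786437-100786736, minus strand: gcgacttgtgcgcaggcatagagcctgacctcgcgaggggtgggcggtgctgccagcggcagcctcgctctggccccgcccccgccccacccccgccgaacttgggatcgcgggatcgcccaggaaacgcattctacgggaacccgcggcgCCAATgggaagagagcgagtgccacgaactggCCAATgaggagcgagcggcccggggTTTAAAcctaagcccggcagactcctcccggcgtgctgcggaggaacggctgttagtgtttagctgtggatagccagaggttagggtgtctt
Cdk1, chr10:69352863-69353162, minus strand: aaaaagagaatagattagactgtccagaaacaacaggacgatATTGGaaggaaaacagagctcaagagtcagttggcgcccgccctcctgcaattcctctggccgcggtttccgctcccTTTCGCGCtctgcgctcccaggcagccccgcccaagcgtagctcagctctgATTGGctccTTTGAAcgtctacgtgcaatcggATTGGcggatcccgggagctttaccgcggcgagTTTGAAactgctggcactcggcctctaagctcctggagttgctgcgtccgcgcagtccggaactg
Bub1, chr2:127831810-127832109, minus strand: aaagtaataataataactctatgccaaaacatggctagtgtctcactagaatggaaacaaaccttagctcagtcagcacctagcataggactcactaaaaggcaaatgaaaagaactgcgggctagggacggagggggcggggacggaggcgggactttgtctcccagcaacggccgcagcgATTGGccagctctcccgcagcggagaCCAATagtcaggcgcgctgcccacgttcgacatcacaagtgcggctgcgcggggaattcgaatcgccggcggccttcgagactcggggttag
Rrm2, chr12:24708004-24708303, plus strand: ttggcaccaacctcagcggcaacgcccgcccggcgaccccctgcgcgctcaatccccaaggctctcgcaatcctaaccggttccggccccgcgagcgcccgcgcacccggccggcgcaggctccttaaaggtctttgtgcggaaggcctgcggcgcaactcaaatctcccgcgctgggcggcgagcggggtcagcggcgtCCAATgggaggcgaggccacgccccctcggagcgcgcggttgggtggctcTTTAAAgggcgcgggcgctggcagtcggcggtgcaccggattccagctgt
Mcm6, chr1:128359656-128359955, minus strand: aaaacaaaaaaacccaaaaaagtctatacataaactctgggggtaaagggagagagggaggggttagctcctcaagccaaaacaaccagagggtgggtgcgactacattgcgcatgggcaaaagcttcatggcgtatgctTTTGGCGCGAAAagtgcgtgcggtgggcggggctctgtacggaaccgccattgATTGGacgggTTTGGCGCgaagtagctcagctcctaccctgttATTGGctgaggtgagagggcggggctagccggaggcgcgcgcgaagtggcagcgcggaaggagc

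CHR letters stood in 15 of 16 mitotic windows (93.8%) and in 4 of 13 S phase windows (30.8%), while 27.6% of all 32851 mouse windows held them. In 13 mitotic genes at least 1 such match lay within 50 bases of the transcript start. A CCAAT box stood in 15 of 16 mitotic windows (93.8%), in 9 of 13 S phase windows (69.2%) and in 37.4% of all windows. E2F letters ran the other way, with 5 of 13 S phase windows (38.5%), those of Mcm3, Mcm5, Mcm6, Mcm7 and Cdc6, against 1 of 16 mitotic windows (6.25%), that of Cdk1, and 2.27% of all windows. In the Mcm6 window a match on each strand overlaps to give the run of capitals TTTGGCGCGAAA, and among all member windows 1 pair of matches to different motifs overlapped. Both Cdkn1a windows held none of the 3 motifs. These are matches of letters, listed without a test.

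**Figure D1:**
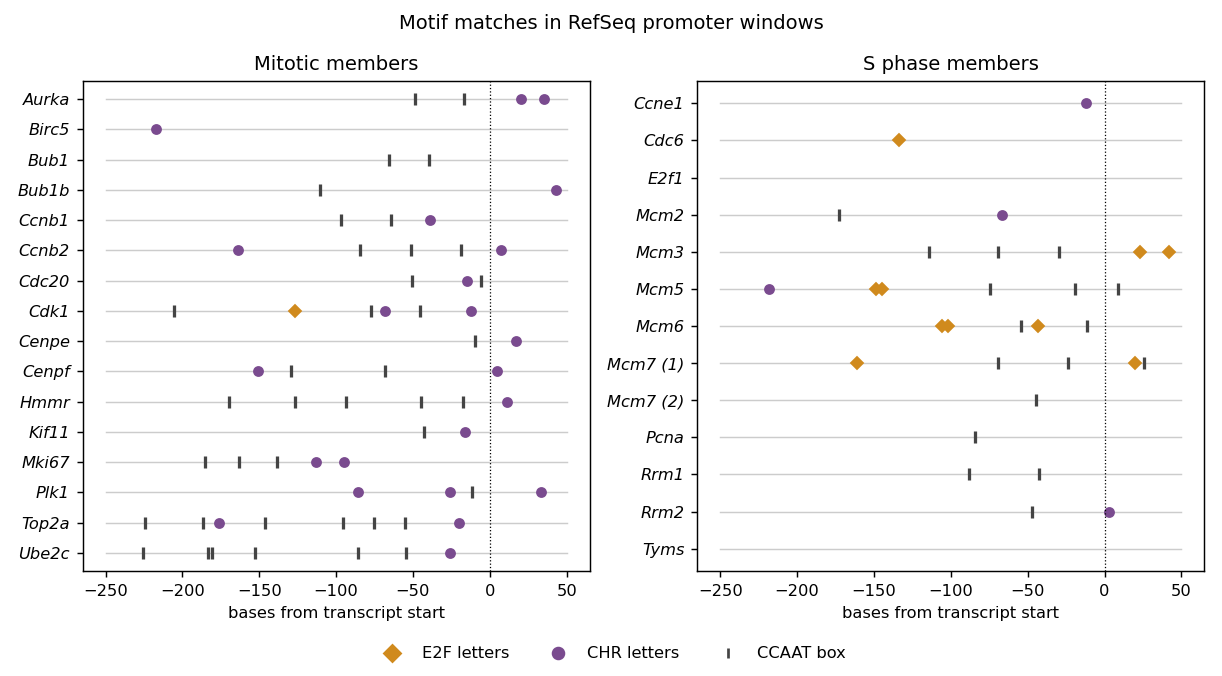
Matches in the RefSeq windows of 16 mitotic and 12 S phase members, with bases from the transcript start on the horizontal axis and 1 line per window; Mcm7 has 2 windows. CHR letters, drawn as circles, appear in 15 of 16 mitotic windows, and E2F letters, drawn as diamonds, in 5 of 13 S phase windows.

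The libraries held between 36556824 and 46165273 reads of the listed genes. Values are CPM, read counts scaled to library size and, between libraries, by edgeR's TMM factors, and a read was worth 0.0216 to 0.0268 CPM, so the members rest on 625 (Ccne2) to 14984 reads (Mcm6) per library. Ch25h itself stood at 0, 0.0232 and 2.95 CPM in libraries 1, 2 and 3 of Ch25h KO, against 82.9, 88.8 and 106 CPM in those of WT, with an adjusted p of 0.00365 in limma, and its values follow the genotype labels. Of the genes of the sorted proteins, Pecam1 (CD31) averaged 723 ± 123 in Ch25h KO and 705 ± 38.8 CPM in WT (SD, n = 3 each). Pdpn (GP38) averaged 155 ± 13.9 in Ch25h KO and 179.8 ± 11.5 CPM in WT. The lymphatic regulator Prox1 averaged 319 ± 77.8 in Ch25h KO and 451 ± 179.9 CPM in WT (SD, n = 3 each), and the VEGFC receptor gene Flt4 averaged 1366 ± 228 in Ch25h KO and 1738 ± 278 CPM in WT. Flt1, a receptor gene of blood endothelium, stood at no more than 4.74 CPM in any library. Of the same list, Esm1, Nrp1, Ly6c1 and Sox17 stood at no more than 6.46 CPM in any library. Its other genes were higher: Plvap averaged 1194 in Ch25h KO and 1878 CPM in WT, and Aqp1 452 and 402 CPM. Cd34 averaged 364 in Ch25h KO and 317 CPM in WT, and Emcn 33.7 and 22.3 CPM. All pairs of libraries differed beyond counting error. In bulk RNA, fewer cells in cycle and less RNA per cycling cell cannot be told apart.

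No cell cycle member passed the test. Means were mostly higher in Ch25h KO among the mitotic members and evenly divided among the S phase members, a difference between the sets that was not tested. The test was limma on log2(CPM + 1), two-sided, with Benjamini-Hochberg adjustment over all genes that averaged 1 CPM or more, 11980 in number, and a log2 fold change is Ch25h KO minus WT on that scale. Of the mitotic members 17 of 19 had a higher mean in Ch25h KO and the median log2 fold change was 0.21. Of the S phase members 7 of 14 had a higher mean and the median was 0.01. Over all genes tested the mean was higher in 49.6% and the median was 0.00. The smallest adjusted p of a member was 0.836, of the tested genes only Ch25h passed (0.00835% of genes), and the members' count of 0 is read against that share.

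At an unadjusted p under 0.05 in limma stood 3 mitotic members, Ccnb1, Cdk1 and Bub1, all higher in Ch25h KO, and 0 S phase members. Over all genes 1.62% stood there on the higher and 3.79% on the lower side. That count of 3 went to 0 without Ch25h KO library 1, without Ch25h KO library 2 or without WT library 3, and to 5 without WT library 2. Over all genes the share on the higher side was 1.79%, 1.94%, 0.676% and 2.12% in those settings, in that order. On reads recovered from the table, edgeR's quasi-likelihood test called 0 members (0% of all genes called). At an unadjusted p under 0.05 on the higher side it had 2 mitotic and 0 S phase members and 1.76% of all genes. DESeq2 called 0 members (0.0919% of all genes called), with 3 mitotic and 0 S phase members and 2.18% of all genes at an unadjusted p under 0.05 on the higher side. Between libraries of a group the median SD on the log2 scale was 0.145 over S phase and 0.146 over mitotic members, beside 0.246 over all genes tested. The genes tested reach down to a mean of 1 CPM, whereas the lowest group mean of these members was 15.2 CPM (Ccne2 in WT). Spread among genes of like level was not compared.

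The 3 Ch25h KO values lay above all 3 WT values in 6 mitotic members, Ccnb1, Cdk1, Aurka, Aurkb, Bub1 and Hmmr, and in 1 S phase member, Rrm2. No member lay wholly below. Over all genes tested the share was 4.38% above and 5.78% below. For Ccnb1, Cdk1, Aurka and Aurkb the nearest libraries of the groups were separated by more than their 95% Poisson counting intervals, and these 4 genes kept the separation under quantile normalization and in CPM without the between-library factors. For Bub1, Hmmr and Rrm2 the gaps were 1.02, 0.09 and 1.08 CPM and within the counting intervals. Bub1 and Hmmr overlapped between the groups in CPM without those factors. Reads carry no molecular identifiers, so such intervals cover counting error only.

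**Figure D2:**
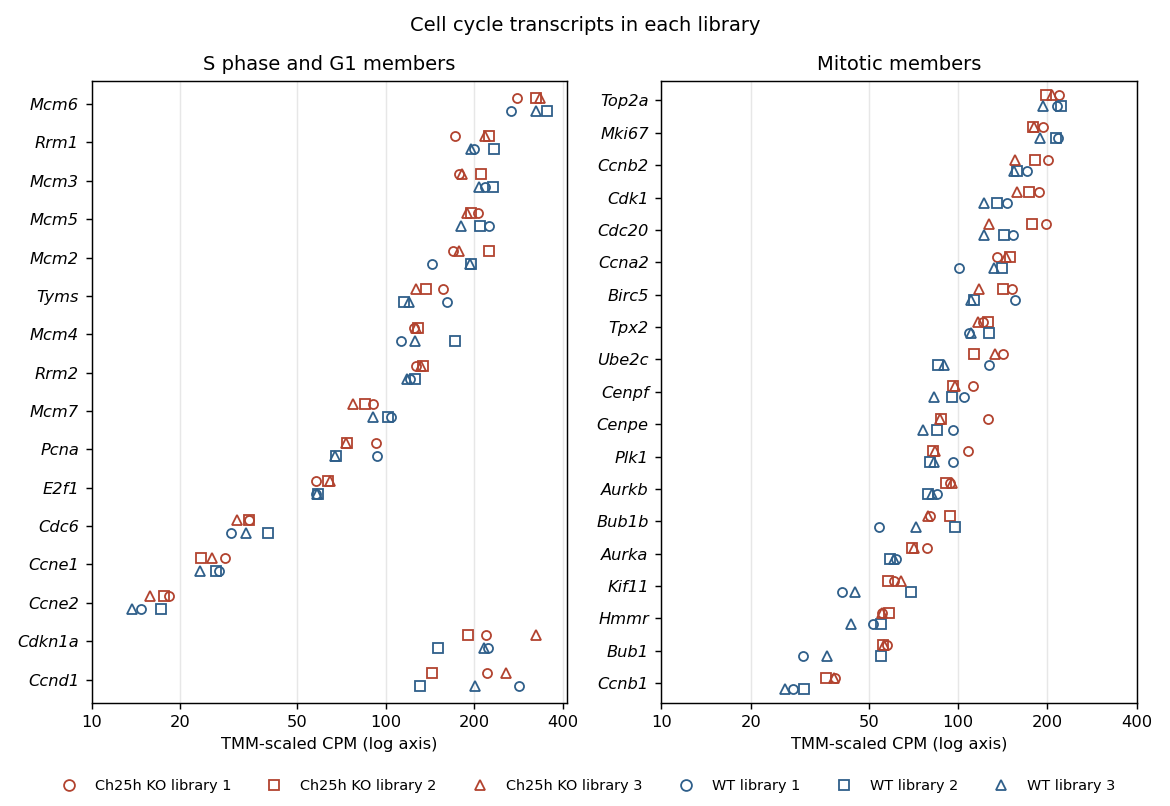
CPM of each member in each library on a log axis, with the Ch25h KO libraries drawn above the WT libraries on every row and the symbols marking the library number. Most S phase rows interleave, whereas in Ccnb1, Cdk1, Aurka and Aurkb all Ch25h KO symbols lie to the right of all WT symbols.

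Among regulators of mitotic entry, cyclin B1 and its kinase did not overlap between the groups. Ccnb1 (chromosome 13, 100778650 to 100786570 on the minus strand of mm10), the cyclin that activates Cdk1, stood at 38.4, 35.8 and 38.2 CPM in libraries 1, 2 and 3 of Ch25h KO, against 27.7, 30.3 and 26.1 CPM in those of WT. Its lowest Ch25h KO value exceeded its highest WT value by 5.49 CPM, the log2 fold change was 0.41 ± 0.15 (SE; 95% interval, unadjusted, 0.07 to 0.75) and the adjusted p was 0.836 in limma. Cdk1 (chromosome 10, 69335146 to 69352938 on the minus strand), the kinase of mitotic entry, stood at 188, 173 and 158 CPM in libraries 1, 2 and 3 of Ch25h KO, against 146, 135 and 122 CPM in those of WT. The 3 Ch25h KO libraries were again the 3 highest, a difference of 0.36 ± 0.14 in log2 (SE; 95% interval 0.06 to 0.67; limma, adjusted p = 0.836). For both genes the exact permutation test, two-sided, gave p = 0.1, the smallest that 3 libraries against 3 allow. Ccnb2, another B-type cyclin, overlapped between the groups at 201, 181 and 156 CPM for Ch25h KO and 171, 158 and 155 CPM for WT in library order. Ccna2, the cyclin of S phase and G2, averaged 143 ± 7.40 in Ch25h KO and 125 ± 20.9 CPM in WT (SD, n = 3 each), with WT library 1 as the low value at 101 CPM. Genes with the names Ccnb1-ps and Ccnb2-ps are annotated as pseudogenes, and how reads that fit both copies were counted is not stated in the sources used here. Ccna2 shares exonic sequence with Exosc9 on the other strand, and the library kit does not mark strand.

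The Aurora kinase genes did not overlap between the groups either, at smaller fold changes than Ccnb1 and Cdk1, and Plk1 overlapped. Aurka (chromosome 2, 172356190 to 172370535 on the minus strand), the kinase of centrosomes and spindle poles, stood at 78.7, 69.8 and 71.2 CPM in libraries 1, 2 and 3 of Ch25h KO, against 61.9, 59.1 and 61.0 CPM in those of WT. All Ch25h KO values were higher, with a gap of 7.97 CPM between the nearest libraries, and the means differed by 0.27 ± 0.13 on the log2 scale (SE; limma, adjusted p = 0.941; exact permutation p = 0.1). Aurkb (chromosome 11, 69045647 to 69051664 on the plus strand), the kinase of the chromosomal passenger complex, stood at 93.5, 91.1 and 95.02 CPM in libraries 1, 2 and 3 of Ch25h KO, against 84.9, 79.2 and 81.5 CPM in those of WT. The gap was 6.22 CPM, with a difference of 0.19 ± 0.13 in log2 (SE; limma, adjusted p = 0.973). Birc5, the survivin subunit of the same complex, averaged 137 ± 18.1 in Ch25h KO and 126 ± 25.1 CPM in WT (SD, n = 3 each), and WT library 1 held its highest value. Tpx2, the activator of Aurora A on spindle microtubules, averaged 121 ± 4.38 in Ch25h KO and 115 ± 10.3 CPM in WT, and Plk1, the Polo kinase, averaged 91.2 ± 14.3 in Ch25h KO and 86.6 ± 8.55 CPM in WT (SD, n = 3 each). Plk1 shares exonic sequence with the unclassified transcript Gm44985 on the other strand.

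Bub1 had a large log2 fold change and the widest interval among the mitotic members. Bub1 (chromosome 2, 127801122 to 127831865 on the minus strand), a kinase of the spindle assembly checkpoint, stood at 57.7, 55.8 and 56.4 CPM in libraries 1, 2 and 3 of Ch25h KO, against 29.9, 54.8 and 36.3 CPM in those of WT. WT library 2 lay next to the Ch25h KO libraries while WT libraries 1 and 3 were lower. The log2 fold change was 0.53 ± 0.21 (SE; 95% interval 0.05 to 1.00; limma, adjusted p = 0.883), and it ran from 0.34 without WT library 1 to 0.76 without WT library 2. Bub1b, which encodes the checkpoint protein BubR1, had the same WT order and overlapped, at 80.1, 93.6 and 78.9 CPM for Ch25h KO and 54.1, 97.7 and 71.9 CPM for WT in library order. The kinesin gene Kif11, whose motor separates the spindle poles, was likewise lowest in WT library 1 and highest in WT library 2, at 60.7, 57.9 and 64.4 CPM for Ch25h KO and 40.8, 69.6 and 44.9 CPM for WT in library order.

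Cenpe, Cenpf, Cdc20 and Ube2c overlapped between the groups, and their means were higher in Ch25h KO. For Cenpe, Cdc20 and Cenpf the size of that difference changed with the library left out. Hmmr did not overlap, by a narrow gap. Without Ch25h KO library 1 the log2 fold change of Cenpe was 0.03 in place of 0.21, and that of Cdc20 was 0.11 in place of 0.24. Without WT library 3 that of Cenpf was 0.03 in place of 0.12. Other omissions raised the values: without Ch25h KO library 3 Cenpe was 0.30 and Cdc20 0.43, and without WT library 1 Cenpf was 0.19. Cenpe, a kinetochore kinesin, averaged 100.2 ± 22.3 in Ch25h KO and 85.7 ± 9.97 CPM in WT, and Cenpf, an outer kinetochore protein, averaged 102 ± 8.94 in Ch25h KO and 94.3 ± 10.8 CPM in WT (SD, n = 3 each). Ch25h KO library 1 was the highest of the 6 in both. Cdc20, the activator of the anaphase-promoting complex, stood at 197, 177 and 127 CPM for Ch25h KO and 153, 143 and 122 CPM for WT in library order. Ube2c, the ubiquitin-conjugating enzyme of that complex, stood at 141, 113 and 133 CPM for Ch25h KO and 127, 85.8 and 89.3 CPM for WT in library order, a difference of 0.37 ± 0.18 in log2 (SE; limma, adjusted p = 0.941). WT library 1 lay among the Ch25h KO values there, and the log2 fold change of Ube2c was 0.55 without it and 0.27 without WT library 2. Cdc20 and Ube2c share exonic sequence with Elovl1 and Tnnc2 on the other strand. Hmmr, which encodes a spindle protein and hyaluronan receptor, stood at 55.2, 58.3 and 55.3 CPM for Ch25h KO and 51.5, 55.1 and 43.6 CPM for WT in library order. Its lowest Ch25h KO value and WT library 2 were nearly equal.

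Mki67 and Top2a, widely used labels of proliferating cells, were the 2 mitotic members with a lower mean in Ch25h KO. Mki67, which encodes the Ki-67 protein that coats mitotic chromosomes, stood at 193, 179 and 180.1 CPM in libraries 1, 2 and 3 of Ch25h KO, against 217, 213 and 189 CPM in those of WT. WT library 3 lay within the Ch25h KO values, and the log2 fold change was -0.16 ± 0.13 (SE; 95% interval -0.45 to 0.12; limma, adjusted p = 0.973). Top2a, the topoisomerase that untangles sister chromatids, averaged 208 ± 10.1 in Ch25h KO and 210.2 ± 15.5 CPM in WT (SD, n = 3 each). Its log2 fold change of -0.02 ± 0.13 (SE) has a 95% interval of -0.30 to 0.27.

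**Figure D3:**
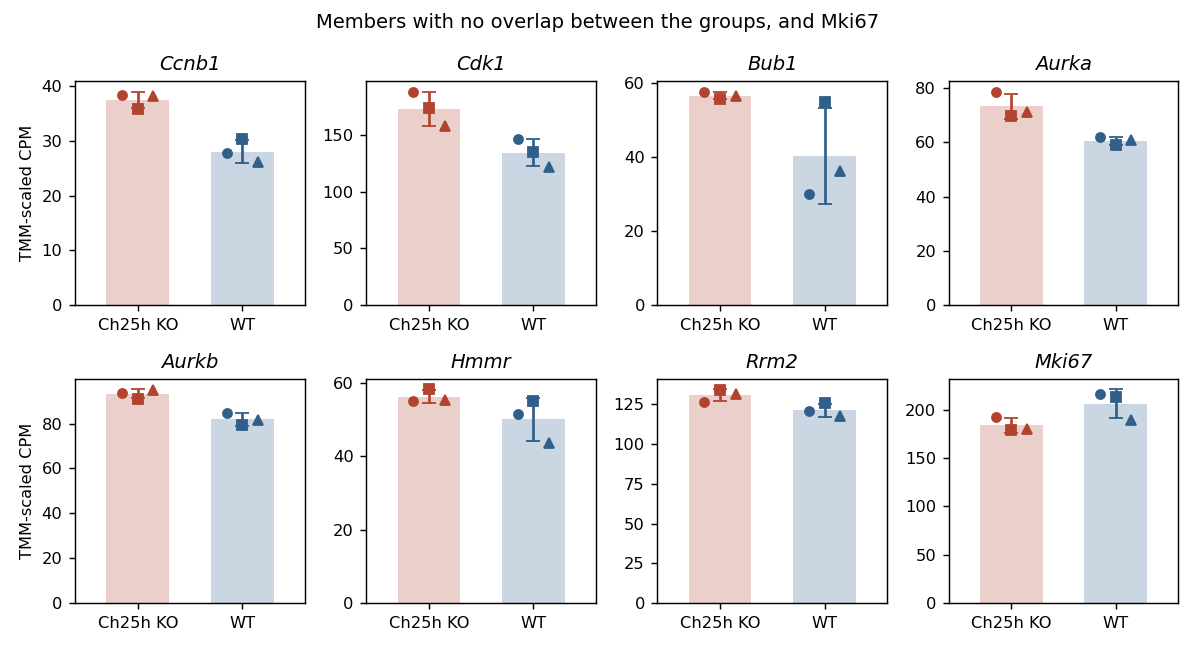
CPM of the 7 members whose groups did not overlap and of Mki67; bars give the mean, error bars the SD of 3 libraries and symbols the libraries 1 (circle), 2 (square) and 3 (triangle). In Ccnb1 the Ch25h KO libraries lie between 35.8 and 38.4 CPM and the WT libraries between 26.1 and 30.3 CPM, while in Mki67 the Ch25h KO bar is the lower one.

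Of the 6 helicase genes 5 had a lower mean in Ch25h KO, and Mcm2 had a higher one. Of these signs, those of Mcm3 and Mcm7 held when any single library was left out, and those of Mcm2, Mcm4, Mcm5 and Mcm6 did not. Mcm6 stood at 281, 324 and 334 CPM in libraries 1, 2 and 3 of Ch25h KO, against 267, 353 and 324 CPM in those of WT. The groups interleaved, with a log2 fold change of -0.002 ± 0.15 (SE; 95% interval -0.34 to 0.33). Mcm3 averaged 190.1 ± 18.3 in Ch25h KO and 219 ± 11.7 CPM in WT and Mcm7 averaged 84.5 ± 6.65 in Ch25h KO and 98.7 ± 7.53 CPM in WT (SD, n = 3 each), with log2 fold changes of -0.21 ± 0.13 and -0.22 ± 0.14 (SE; limma, adjusted p = 0.969 and 0.966). Mcm2 had the higher mean in Ch25h KO (190.4 ± 29.9 in Ch25h KO and 177 ± 29.5 CPM in WT), and Mcm4 (127 ± 1.98 in Ch25h KO and 137 ± 31.1 CPM in WT) and Mcm5 (197 ± 8.37 in Ch25h KO and 205 ± 22.4 CPM in WT) the lower one (SD, n = 3 each). The subunits also differed in spread: Mcm4 lay between 125 and 129 in Ch25h KO and between 113 and 172 CPM in WT. Mcm7 shares exonic sequence with Cops6 and Ap4m1 on the other strand.

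The genes of the clamp and of nucleotide supply overlapped between the groups as well, except for Rrm2. Pcna stood at 92.5, 73.6 and 73.4 CPM for Ch25h KO and 93.4, 67.6 and 67.1 CPM for WT in library order, with library 1 the highest in both groups. Tyms, the thymidylate synthase, was likewise highest in library 1 of each group, at 157, 137 and 127 CPM for Ch25h KO and 161, 115 and 119.9 CPM for WT in library order. Rrm2 (chromosome 12, 24708241 to 24714146 on the plus strand), the regulated subunit of ribonucleotide reductase, stood at 127, 134 and 131 CPM in libraries 1, 2 and 3 of Ch25h KO, against 121, 126 and 118 CPM in those of WT. Its groups were separated by a narrow gap, and the log2 fold change was 0.11 ± 0.12 (SE; limma, adjusted p = 0.973). Rrm1, the large subunit, averaged 205 ± 28.6 in Ch25h KO and 209 ± 20.7 CPM in WT (SD, n = 3 each) and had no such separation. Pcna and Tyms have annotated pseudogenes.

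The G1/S regulators of the S phase set overlapped between the groups. E2f1, the transcription factor of the G1/S switch, stood at 57.8, 63.8 and 64.6 CPM for Ch25h KO and 58.1, 58.8 and 58.3 CPM for WT in library order. The WT values were within 1 CPM of each other, and Ch25h KO library 1 lay just below them. Ccne2, a cyclin E gene, had a log2 fold change of 0.17 ± 0.19 (SE; 95% interval -0.24 to 0.59; limma, adjusted p = 0.973), at means of 17.2 ± 1.30 in Ch25h KO and 15.2 ± 1.79 CPM in WT (SD, n = 3 each). Its log2 fold change was 0.11 without WT library 3 and 0.26 without WT library 2. It shares exonic sequence with Ints8 on the other strand. Ccne1 averaged 25.9 ± 2.43 in Ch25h KO and 25.6 ± 2.02 CPM in WT, and Cdc6, which loads the helicase onto origins, averaged 33.3 ± 1.77 in Ch25h KO and 34.3 ± 5.15 CPM in WT (SD, n = 3 each). The 95% intervals of 13 of the 14 S phase members lay within 1.5-fold in either direction, with the upper end for Ccne2 slightly beyond; for the mitotic members the count was 11 of 19. A p that misses the threshold does not show that the groups were alike.

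**Figure D4:**
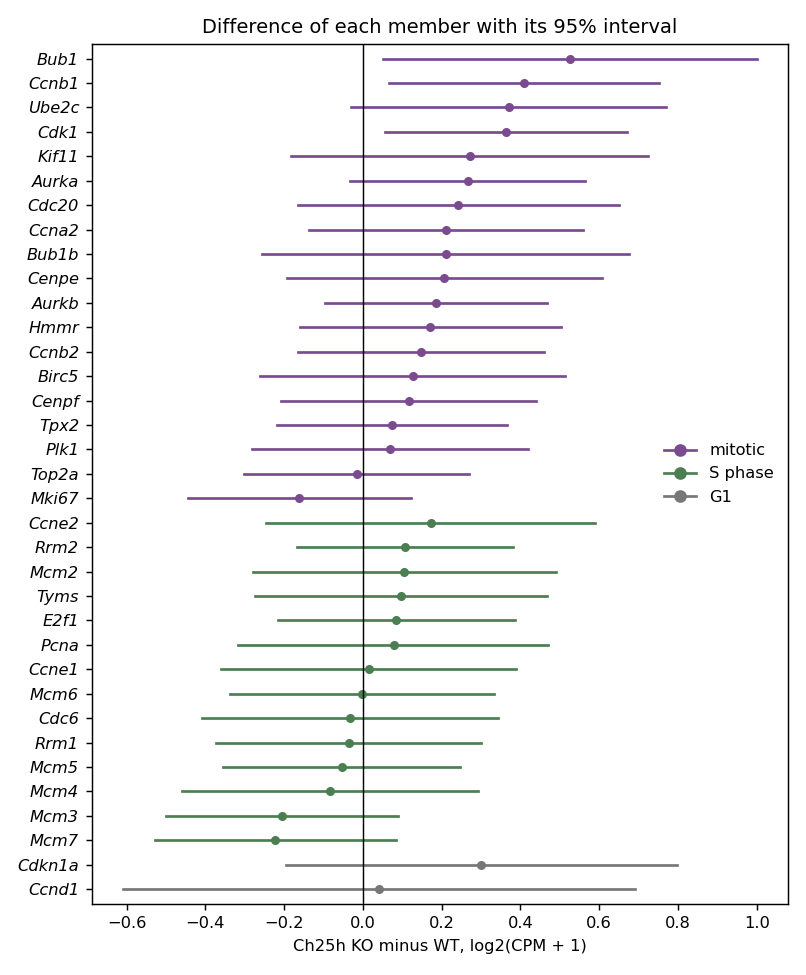
Log2 fold change, Ch25h KO minus WT, of each member with its unadjusted 95% interval from limma, ordered within the mitotic, S phase and G1 sets. The mitotic points lie right of 0 except Top2a and Mki67, and the S phase points spread from -0.22 (Mcm7) to 0.17 (Ccne2).

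The G1 genes had a larger spread between libraries than the other members, with a median SD of 0.427 on the log2 scale. Ccnd1, the cyclin D that links growth factor signals to the cycle, stood at 221, 143 and 257 CPM in libraries 1, 2 and 3 of Ch25h KO, against 284, 130.4 and 201 CPM in those of WT. The WT range enclosed the Ch25h KO range, with library 2 the lowest in each, and the log2 fold change was 0.04 ± 0.29 (SE; 95% interval -0.61 to 0.69). Cdkn1a, which encodes the kinase inhibitor p21 and is a target of p53, stood at 219.8, 191 and 324 CPM in libraries 1, 2 and 3 of Ch25h KO, against 223, 151 and 216 CPM in those of WT. Ch25h KO library 3 was its highest value, and the difference of 0.30 ± 0.22 in log2 (SE; limma, adjusted p = 0.973) was 0.08 without that library. Ccnd1 and Cdkn1a both share exonic sequence with an annotated gene on the other strand.

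Between genes, levels were compared per kilobase of annotated exon. In the S phase set Mcm6 was the highest, with 67.1 CPM per kilobase in Ch25h KO and 67.4 in WT, and Ccne2 the lowest, with 4.92 in Ch25h KO and 4.35 in WT. In the mitotic set Ccnb2 was the highest, with 117 CPM per kilobase in Ch25h KO and 105 in WT, followed by Cdc20 with 89.6 and 74.7. Ccnb1, whose groups did not overlap, was among the lowest, with 8.89 CPM per kilobase in Ch25h KO and 6.65 in WT. Exons of all transcripts of a gene were merged for its length, which lowers the value of genes with long, rarely used exons.

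Other genes of the cycle, listed by function, held no call either. In the list of origin licensing and the replication fork, 0 of 42 genes passed the test, 19 had a higher and 23 a lower mean in Ch25h KO, and the median log2 fold change was -0.06. Its smallest p values belonged to Dnmt1, the methyltransferase that copies DNA methylation at the fork, with 127 ± 4.75 in Ch25h KO and 168 ± 22.2 CPM in WT, and to the origin subunit gene Orc1, with 8.36 ± 0.576 in Ch25h KO and 11.6 ± 2.38 CPM in WT (SD, n = 3 each). Both lay wholly below WT. In the list of deoxynucleotide supply, 12 genes were tested with 0 calls and a median log2 fold change of 0.06, and 8 means were higher in Ch25h KO. Samhd1, which breaks down deoxynucleotides and is also induced by interferon, averaged 100.5 ± 26.5 in Ch25h KO and 190.3 ± 83.2 CPM in WT, and the pyrophosphatase gene Dctpp1 averaged 38.2 ± 5.45 in Ch25h KO and 32.0 ± 6.12 CPM in WT (SD, n = 3 each).

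Among spindle, kinetochore and cytokinesis genes, 0 of 47 genes passed the test, 37 had a higher and 10 a lower mean in Ch25h KO, and the median log2 fold change was 0.11. Cenpk, a subunit of the inner kinetochore, averaged 16.9 ± 1.98 in Ch25h KO and 11.8 ± 2.20 CPM in WT and lay wholly above WT, whereas Espl1, the separase that cuts cohesin, averaged 20.3 ± 2.45 in Ch25h KO and 30.8 ± 9.35 CPM in WT (SD, n = 3 each). Among genes of mitotic entry, checkpoint kinases and the anaphase-promoting complex, 26 genes were tested with 0 calls and a median log2 fold change of 0.10, and 21 means were higher in Ch25h KO. Cks1b, a small subunit bound to cyclin-dependent kinases, averaged 134 ± 12.2 in Ch25h KO and 106 ± 21.5 CPM in WT, and Gtse1, a microtubule-binding protein of G2, averaged 42.1 ± 5.03 in Ch25h KO and 32.9 ± 6.81 CPM in WT (SD, n = 3 each). Both medians were smaller than that of the mitotic members, and no test of a list was made.

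For the RB, E2F and DREAM regulators, 22 genes were tested with 0 calls and a median log2 fold change of 0.03, and 12 means were higher in Ch25h KO. E2f5, a repressive E2F, averaged 36.2 ± 5.10 in Ch25h KO and 27.5 ± 2.15 CPM in WT, and Mycn averaged 30.6 ± 2.84 in Ch25h KO and 23.2 ± 6.22 CPM in WT (SD, n = 3 each). For the other G1 cyclins and kinases, 10 genes were tested with 0 calls and a median log2 fold change of 0.10, and 6 means were higher in Ch25h KO, with the cyclin D gene Ccnd3 at 175 ± 10.1 in Ch25h KO and 146 ± 13.4 CPM in WT and Mnat1, a subunit of the CDK-activating kinase, at 55.5 ± 5.91 in Ch25h KO and 46.8 ± 7.36 CPM in WT (SD, n = 3 each). For kinase inhibitors and p53 targets, 20 genes were tested with 0 calls and a median log2 fold change of 0.14, and 11 means were higher in Ch25h KO. Phlda3, a p53 target that restrains Akt, had the smallest p of all these lists: it stood at 146, 112 and 156 CPM in libraries 1, 2 and 3 of Ch25h KO, against 96.4, 87.8 and 91.3 CPM in those of WT, which is 0.57 ± 0.15 on the log2 scale (SE; limma, adjusted p = 0.836). Bax, the pro-apoptotic p53 target, averaged 371 ± 37.0 in Ch25h KO and 277 ± 45.8 CPM in WT (SD, n = 3 each). Both were higher in all 3 Ch25h KO libraries than in any WT library.

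Library by library, the score of a set, its mean log2 deviation from the WT mean, put numbers on both patterns. The mitotic score was 0.29, 0.18 and 0.13 in Ch25h KO libraries 1, 2 and 3, against 0.01, 0.08 and -0.10 in WT libraries 1, 2 and 3. The S phase score was 0.00, 0.04 and -0.04 in Ch25h KO libraries 1, 2 and 3, against -0.01, 0.08 and -0.07 in WT libraries 1, 2 and 3. The mitotic scores of the groups did not overlap, by a gap of less than the spread within a group, and the S phase scores interleaved. Within each library the mitotic score minus the S phase score was 0.29, 0.14 and 0.17 in Ch25h KO, against 0.03, 0.00 and -0.03 in WT. Between the groups, the scores of endothelial markers differed in the other direction. The score of the lymphatic markers was -0.21, -0.12 and -0.27 in Ch25h KO, against -0.07, 0.00 and 0.06 in WT, and that of the blood endothelial markers was -0.50, -0.36 and -0.17 in Ch25h KO, against 0.07, 0.00 and -0.08 in WT, so both lay wholly lower in Ch25h KO. Within the groups some libraries followed that direction and others did not. In Ch25h KO the blood endothelial score rose from library 1 to library 3 while the mitotic score fell. WT library 3 had the lowest mitotic and the highest lymphatic score of its group. The other way, Ch25h KO library 3 had the lowest mitotic and the lowest lymphatic score of its group. WT library 3 also had the lowest blood endothelial score of its group. The blood endothelial score includes Flt1, Esm1, Nrp1 and Ly6c1, at no more than 6.46 CPM in any library. Summed CPM of either list overlapped between the groups. The part of endothelial markers in the mitotic difference was not tested. Ch25h KO library 1 was the highest of the 6 in 10 of the 19 mitotic members, and WT library 3 was the lowest in 9. The median of the mitotic log2 fold changes was 0.12 without library 1 of both groups, an alternative added once the values were known, and between 0.15 and 0.24 when a single library was left out.

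Marker sums of other cells and transcript length also differed between libraries. Among these sums only the melanoma sum was highest and lowest in the same libraries as the mitotic score. Summed over 15 of 16 listed melanocyte and melanoma genes, the tumour's own lineage, the level was 283, 174 and 115 CPM in Ch25h KO libraries 1, 2 and 3, against 221, 77.9 and 48.4 CPM in WT libraries 1, 2 and 3. Ch25h KO library 1 was the highest and WT library 3 the lowest, as in the mitotic score, while WT library 1 ranked after it in the melanoma markers and below all Ch25h KO libraries in the mitotic score. Of the 13 melanoma genes tested 12 had a higher mean in Ch25h KO, and 0 passed the test. Dct, the pigment enzyme gene of highest mean in that list, averaged 71.6 ± 28.4 in Ch25h KO and 43.5 ± 35.8 CPM in WT (SD, n = 3 each). Leukocyte markers summed over 13 of 20 genes to 50.4 to 284.7 in Ch25h KO and 44.2 to 382 CPM in WT, with Lyz2 the highest, Ptprc listed at 0 in Ch25h KO library 1 and WT library 2, and 19.7 CPM of Ptprc in Ch25h KO library 2. Fibroblast markers summed over 10 of 11 genes to 90.5 to 222 in Ch25h KO and 80.3 to 397 CPM in WT, with Col3a1 the highest and Fap listed at 0 in at least 1 library. Mural markers summed over 6 of 10 genes to 246 to 363 in Ch25h KO and 158 to 347 CPM in WT, most of it Kcnj8, with Pdgfrb and Des listed at 0 in at least 1 library. Lymphatic markers summed over 14 of 15 genes to 7958 to 10429 in Ch25h KO and 8715 to 11091 CPM in WT. Of these genes 12 of 14 had a lower mean in Ch25h KO. Lyve1, the highest of them, was 1 of the 2 with a higher mean. It averaged 3224 ± 698 in Ch25h KO and 2595 ± 273 CPM in WT (SD, n = 3 each), and its groups overlapped. Blood endothelial markers summed over 9 of 10 genes to 1809 to 2298 in Ch25h KO and 2241 to 3200.0 CPM in WT, with Plvap the highest. Of the 8 blood endothelial genes tested 5 had a lower mean in Ch25h KO and 3, Emcn, Aqp1 and Cd34, a higher one. Wholly below WT lay 3 of the 8, beside 5.78% of all genes tested. At an unadjusted p under 0.05 in limma on the lower side stood 2 of them, beside 3.79% of all genes tested. Plvap, which forms the diaphragms of endothelial pores, averaged 1194 ± 109.7 in Ch25h KO and 1878 ± 559 CPM in WT, and Ly6c1 averaged 1.68 ± 0.53 in Ch25h KO and 4.97 ± 2.14 CPM in WT (SD, n = 3 each).

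Genes with under 3.38 kilobases of exon had a median log2 deviation from the mean of the 6 libraries of 0.13 in Ch25h KO library 1, 0.13 in WT library 1 and -0.14 in WT library 2. Genes with over 5.93 kilobases had -0.10, -0.07 and 0.13 in the same libraries, and so library 1 of each group was shifted toward short transcripts and WT library 2 toward long ones. With the length trend removed within each library, also added once the values were known, the median log2 fold change was 0.23 over the mitotic and 0.045 over the S phase members. Ccnb1, Cdk1, Aurka, Aurkb, Bub1 and Hmmr still did not overlap between the groups and Rrm2 did. The part of tumour or other cells in the mitotic difference was not tested.

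**Figure D5:**
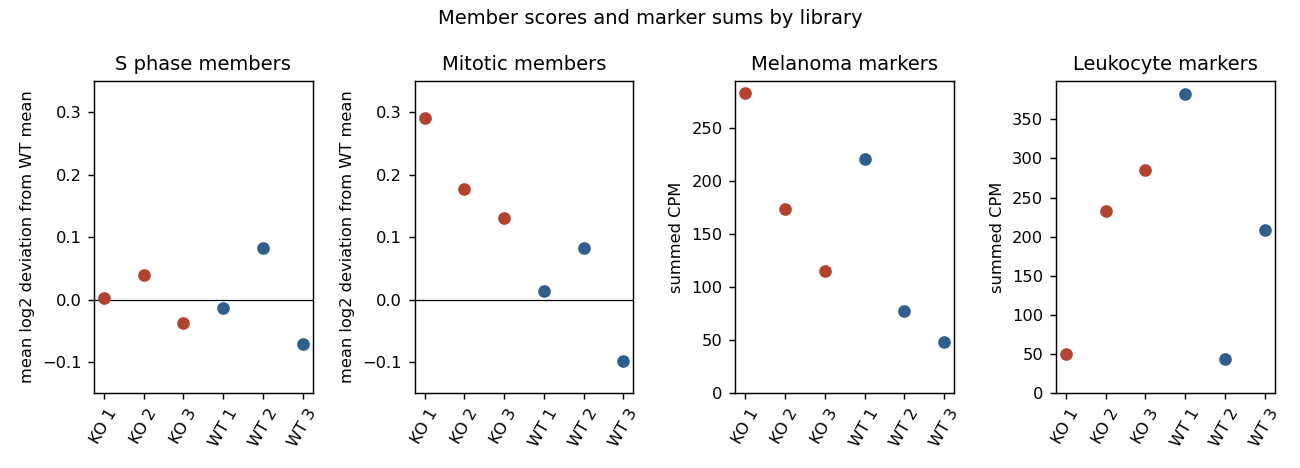
S phase and mitotic scores (mean log2 deviation from the WT mean) and summed CPM of melanoma and leukocyte markers, 1 point per library, Ch25h KO libraries first. The mitotic score is 0.29 in Ch25h KO library 1 and -0.10 in WT library 3, the libraries with the highest and the lowest melanoma sum. In Ch25h KO library 3, 200.1 CPM of the leukocyte sum came from Fcer1g.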

How the data were processed

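RNA of sorted tumour lymphatic endothelial cells was measured in 3 Ch25h KO and 3 WT libraries, made per the labels' protocols with SMART-Seq v4, which does not mark strand, and Nextera XT. The deposited signal, on the CPM scale, lists 13454 genes; the submitters' processing notes name mm10, edgeR 3.26.8, HTSeq 0.9.1 and STAR 2.7.0, and their roles, the annotation and the gene filter are not stated in the sources used here. Every value is a whole multiple, within 0.01, of its library's smallest value above 0, for 100% of values, and the read counts so recovered give TMM factors equal to those in the deposited signal. Columns were mapped to samples by title and groups taken from the genotype labels.

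The test was limma 3.58.1 in R 4.3.3 on log2(CPM + 1), with group alone in the design and a trended variance prior, over genes that averaged 1 CPM or more. The threshold was an adjusted p of 0.05. Single values also had an exact permutation test, two-sided, whose smallest p is 0.1. Alternatives were other pseudocounts (0.25 and 4), filters (none, 5 CPM), scalings, no variance trend, a replicate block, edgeR 4.0.16 and DESeq2 1.42.0 on recovered reads, and leaving out each library. The fit was tested on simulated data. Members and gene lists were chosen with earlier results of these data known. Named were all members, and of each marker list the gene of highest mean. Of each other cell cycle list up to 4 genes past the threshold were named, or else the 2 of smallest p. Flt4, Flt1, Esm1, Nrp1, Ly6c1, Sox17, Aqp1, Cd34, Emcn, Ptprc, Fcer1g, Fap, Pdgfrb and Des were named after their values were seen. Lengths and positions come from GENCODE M21 on mm10, with 99.02% of symbols matched; promoters come from RefSeq.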

Additional observations from a re-analysis of the deposited data

How the results depend on the processing

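No alternative gave a call for an S phase member, a mitotic member or a gene of the other cell cycle lists. The count of genes called over the whole table, 1 in the main test, was 0 with a pseudocount of 0.25, 0 in edgeR, 11 in DESeq2 and 0 without library 1 of both groups, and ran from 0 to 2 when single libraries were left out. The median log2 fold change ran from -0.025 to 0.060 (S phase) and from 0.150 to 0.243 (mitotic) over those 6 settings. Members whose groups do not overlap were 7 with all libraries, 9 to 13 with 1 library fewer and 17 without library 1 of both groups, or 20%, 25.7% to 37.1% and 48.6% of members; over all genes the share was 10.2%, 14% to 32.1% and 41.2%. The replicate block gave 1 call over the whole table, and the smallest adjusted p of a member was 0.683 in limma. At an unadjusted p under 0.05 it had 5 mitotic members and 850 of 11980 genes, against 3 and 648 in the main test. The labels do not say whether same-numbered libraries are pairs. Such libraries correlated in their deviations at 0.24, -0.06 and -0.10, and only library 1 correlated best with its own number. So few values cannot settle whether the samples are paired. Among single members 11 changed sign under some setting, none with a call. Leaving out single libraries gave -0.249 to 0.309 for Ccnd1, -0.052 to 0.078 for Ccne1, -0.129 to 0.077 for Cdc6, -0.041 to 0.183 for Mcm2, -0.211 to 0.092 for Mcm4, -0.143 to 0.013 for Mcm5, -0.115 to 0.085 for Mcm6, -0.032 to 0.233 for Pcna, -0.057 to 0.146 for Plk1, -0.110 to 0.083 for Rrm1 and -0.076 to 0.027 for Top2a. Without library 1 of both groups Rrm1 was 0.052 and Ccne1 -0.011, and with the length trend removed Mcm6 was 0.026, Rrm1 0.066, Cdc6 0.006 and Top2a 0.074, all on the log2 scale; the cause was not tested.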
